A study of Mus musculus with 6 samples.

Results

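The autophagy machinery genes are the 42 genes that encode the proteins which form, fill and deliver the autophagosome, and all 42 were found by gene name among the 54532 genes of the count table. Their mRNA was read from bulk RNA-seq libraries of cells described as primary myoblasts, the cultured progeny of muscle stem cells. There were 3 libraries from WT (WT 1 to 3) and 3 labelled eIF5A-KO (eIF5A-KO 1 to 3). eIF5A is a translation factor, so the comparison asks how far the mRNA of these genes differs between cultures that make it and cultures labelled as lacking it. By the study's methods the knockout mice were Pax7CreERT2/+;eIF5A f/f, and the WT mice were littermates. In that knockout genotype Cre recombinase is made from the Pax7 gene and is active only after tamoxifen. Knockout mice of 3 weeks are called tamoxifen-induced in the paper, which does not say whether their WT littermates were given it too. The paper describes its WT controls both as Pax7CreERT2/+ and as Pax7+/+;eIF5A f/f mice, and for these libraries the labels give the genotype as WT with no further allele. Cells came from hind-limb muscle of mice aged 3 weeks, were digested with dispase and collagenase, were grown with 10 ug/ml FGF and were collected at day 2 of proliferation in both groups. Cre acts only in cells that express Pax7, and no sorting step is described for these cultures, so other cells of the muscle would keep both eIF5A alleles. Nothing in the labels ties a library to a separate animal, and p-values therefore measure the spread between these libraries.

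Autophagy begins when the ULK kinase complex starts a membrane sac, on which the class III PI3-kinase complex makes a lipid signal. ATG9 and ATG2 supply membrane, WIPI proteins read the lipid signal, and a pair of ubiquitin-like conjugation reactions attaches proteins of the ATG8 family (LC3 and GABARAP) to the growing membrane. Receptors such as p62 tie cargo to ATG8 proteins, and the closed vesicle fuses with the lysosome, where its content is degraded. Muscle stem cells use this pathway to clear proteins and mitochondria and to fuel their exit from quiescence. Much of its control lies in phosphorylation, lipidation and protein turnover, which mRNA levels do not show.

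Depth was similar across the libraries, with 16281216 to 17734551 counted reads, and each of the 42 members had between 61 and 31389 counts in each library. Eif5a, the targeted gene, stood at 1603, 986 and 1238 CPM (read counts scaled to a common library size with TMM factors) in WT and at 1364, 1459 and 1059 CPM in the libraries labelled eIF5A-KO, with a log2 fold change of 0.02 (95% interval -0.51 to 0.55, edgeR adjusted p = 0.993). The groups overlapped, so the mRNA of the targeted gene does not check the labels. Which part of the transcript the floxed allele removes was not used here. The paper reports that the knockout was established, from RT-qPCR and immunostaining of muscle stem cells of older mice. In the present libraries Eif5a mRNA was not lower, and the reason was not tested. None of 9 myoblast markers was at 0 in all libraries. The same held for the markers of other cell types below, so this does not check the labelled cell type. The summed level of the myoblast markers was 711 to 1852 CPM in WT and 645 to 1215 CPM in eIF5A-KO, below that of the 7 fibroblast markers in both groups. Markers of other muscle-resident cells were also present: summed levels in WT and eIF5A-KO were 2482 to 3272 and 2370 to 2969 CPM for 7 fibroblast markers, 932 to 2048 and 1689 to 2631 CPM for 6 endothelial markers, 348 to 502 and 633 to 698 CPM for 7 mural markers, and 52.5 to 123 and 53.4 to 151 CPM for 7 macrophage markers. All 7 mural and all 6 endothelial markers had estimates above 0 in eIF5A-KO, with median log2 fold changes of 0.54 and 0.45, while 8 of 9 myoblast markers had estimates below 0, with a median of -0.58. These medians varied with the libraries. Without WT 2, 4 of the 9 myoblast markers had estimates below 0 and their median was 0.03, and the 3 with an unadjusted p under 0.05 in the full set by edgeR were Myog (log2 fold change -2.94), Chrna1 (-1.62) and Pax7 (-1.50). By the same p, 4 of the 7 mural markers were higher, and the smooth muscle myosin gene Myh11 among them was 1 of the 3 genes called in the whole table (log2 fold change 1.52, edgeR adjusted p = 0.0486). The endothelial median was 0.19 without WT 1, with 5 of 6 above 0, and 0.22 without eIF5A-KO 3, and the mural median was 0.95 without WT 2. In bulk RNA, fewer cells of a type and less RNA per cell cannot be told apart, and the part of these shifts in the results below was not tested.

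No member of the autophagy machinery passed the test in either direction. All 42 passed the filter on low counts, and none had an edgeR adjusted p under 0.05, against 0.0204% of the 14679 genes tested (3 genes). Without adjustment, 0 members were higher and 0 lower at p under 0.05, where 2.74% of all tested genes were higher and 4.02% lower. The lowest p of a member was 0.0646, for Uvrag (edgeR adjusted p = 0.791). What the libraries do give is an interval for the size of the difference in each gene taken alone. No joint limit over the members was computed. The 95% intervals of all 42 log2 fold changes lay within a 2-fold change, with the outermost bounds at folds of 0.524 (Atg10) and 1.96 (Optn), against 70.7% of all tested genes. With a narrower limit of 1.5-fold, chosen after the values were seen, 21 members (50%) had their interval inside, against 26.8% of all tested genes. Interval width depends on read counts, and the tested genes include some with fewer counts than any member. Among genes with at least 10 counts in every library the shares were 77.9% inside 2-fold and 29.0% inside 1.5-fold. Members were not compared with genes of like level. Differences smaller than the interval bounds are not excluded by 3 libraries per group.

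Within those bounds, the estimates leaned to the side of eIF5A-KO. Of the 42 members, 30 (71.4%) had an estimate above 0 and 12 below, against 48.3% above 0 among all tested genes, a count also chosen after the values were seen. Their median log2 fold change was 0.12, with a range from -0.28 (Atg10) to 0.42 (Optn), and the median over all tested genes was -0.01. In 7 members (16.7%) every eIF5A-KO library was above every WT library, against 5.68% of all tested genes, and in 0 members was it the reverse, against 6.83%. These 7 were Uvrag, Atg7, Sqstm1, Optn, Tfe3, Lamp1 and Rab7, and they came from 5 of the 8 role groups. Member genes took 0.506%, 0.527% and 0.557% of all counts in WT and 0.651%, 0.580% and 0.593% in eIF5A-KO, shares in which Sqstm1 and Lamp1 weigh most. Genes of a shared pathway in the same 6 libraries are not independent, so no test was put on these shares.

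**Figure D1:**
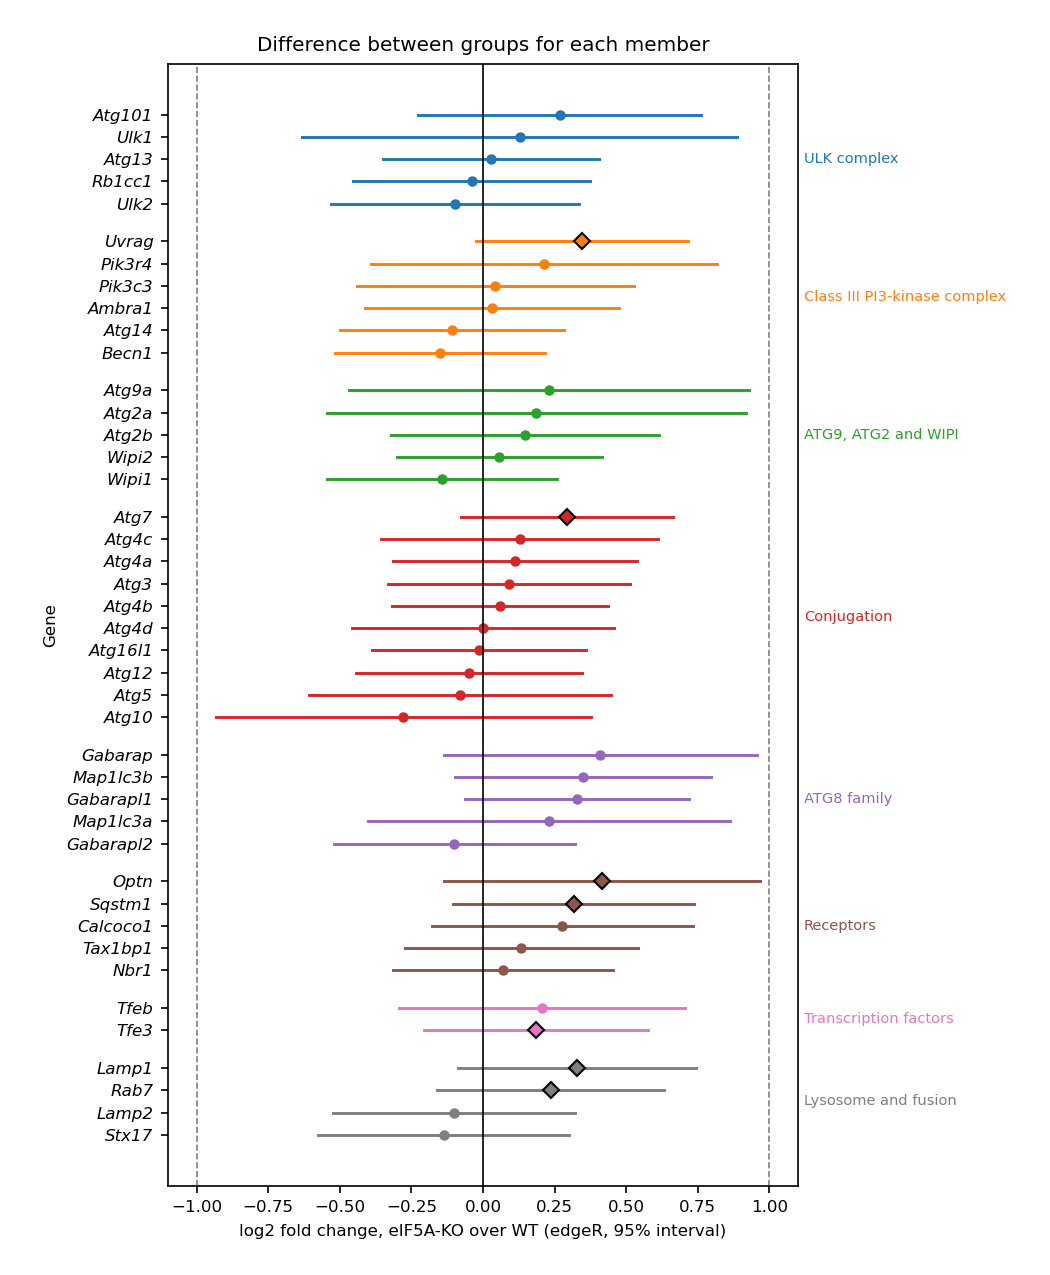
The log2 fold change of each of the 42 members, eIF5A-KO over WT, with its 95% interval from edgeR, grouped and coloured by role. Black-edged diamonds mark the 7 members whose groups did not overlap, and dashed lines mark a 2-fold change; every interval crosses 0 and stays between the dashed lines.

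Levels per gene length differed among the members by more than 100-fold. FPKM, the authors' measure that divides counts by gene length and by a library size factor, averaged over the 6 libraries was highest for Sqstm1 at 448, followed by Lamp1 at 375, Gabarap at 209 and Rab7 at 141. These 4 genes made up 70.5% of the summed FPKM of the members, and 25 of the 42 were under 10 FPKM. Sqstm1 and Lamp1 stood at 398 ± 25.1 and 332 ± 31.7 FPKM in WT (SD, n = 3), and at 498 ± 59.8 and 419 ± 41.9 FPKM in eIF5A-KO. Their order was the same in both groups. Tfeb, at 2.65 FPKM, had the lowest mean, next to Atg10 and Atg4d, both at 2.81 FPKM. Tfeb was the lowest of the 3 in WT at 2.46 ± 0.428 FPKM, and Atg10 was the lowest in eIF5A-KO at 2.55 ± 0.534 FPKM (SD, n = 3).

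**Figure D2:**
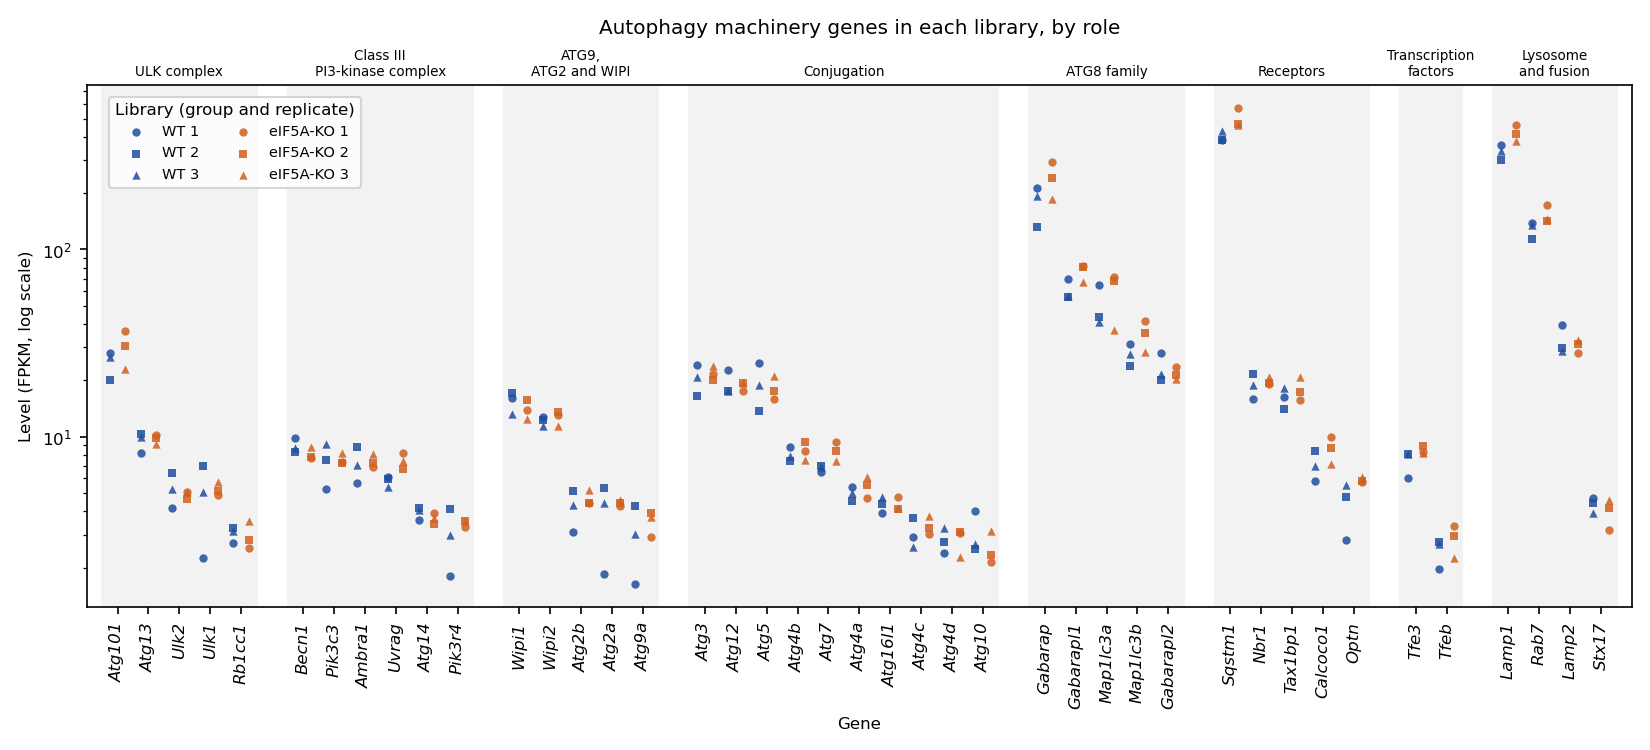
FPKM of the 42 members in each library on a log scale, grouped by role and ordered by mean level within a group. Blue marks are WT and orange marks eIF5A-KO, with a circle, square and triangle for replicates 1, 2 and 3; Sqstm1, Lamp1, Gabarap and Rab7 are the 4 members with a mean of at least 100 FPKM, and the WT 1 circle lies far below the other marks for Ulk1, Atg2a, Atg9a, Pik3r4 and Optn.

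TFEB and TFE3, the members that act as transcription factors, bind the hexamer CACGTG, which sits inside the longer GTCACGTG of the element known as CLEAR in promoters of lysosomal and autophagy genes. To place the members against that element, the 250 bases before each RefSeq transcription start (GRCm38.p6) were searched on both strands. Promoters of 36 members were in the table, and Rb1cc1, Becn1, Pik3c3, Atg12, Atg16l1 and Map1lc3a had no entry. CACGTG was found in 4 members (11.1%) and in 6.86% of 27025 genes with a promoter of the same length, and GTCACGTG in 3 members (8.33%) and in 2.11%. Each GTCACGTG is counted as a CACGTG too. The stretches that hold the matches are shown because Lamp1 and Atg7 are also among the 7 members whose groups did not overlap. Each reads 5′ to 3′ on the plus strand, which is the strand of all 4 genes, with CACGTG in capitals.
Lamp1, chr8:13159080-13159160: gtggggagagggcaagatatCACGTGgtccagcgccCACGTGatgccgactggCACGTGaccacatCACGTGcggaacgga
Atg3, chr16:45158715-45158783: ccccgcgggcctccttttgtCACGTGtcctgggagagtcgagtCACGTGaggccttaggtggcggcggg
Atg7, chr6:114670944-114670989: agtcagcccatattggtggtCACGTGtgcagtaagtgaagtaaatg
Atg5, chr10:44268305-44268338: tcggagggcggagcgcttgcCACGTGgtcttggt
Lamp1 held 4 copies of the hexamer between 15 and 61 bases upstream of its start, the one at 28 bases as GTCACGTG on the minus strand. Atg3 held 2, at 71 and 94 bases, both as GTCACGTG, and Atg5 held 1 at 14 bases in the short form. The stretch of Atg7 belongs to a RefSeq start that lies inside the gene, 132 bases downstream of the hexamer, in a region that GENCODE M21 annotates as intron. A match describes the letters of the window and is not a measured binding site. The 4 genes did not share a pattern in the libraries: log2 fold changes were 0.33 for Lamp1, 0.29 for Atg7, 0.09 for Atg3 and -0.08 for Atg5.

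The ULK complex, which receives the signal to start, showed no lean to either group. Of its 5 members, 3 had estimates above 0 and 2 below, with a median log2 fold change of 0.03, and in none were the groups apart. Atg101 (chr15:101284272-101290945), a subunit that stabilises ATG13, had the highest level of the complex per gene length at 27.5 FPKM and also the largest estimate. It was at 45.4, 32.5 and 42.9 CPM in WT and at 59.0, 49.3 and 37.1 CPM in eIF5A-KO. The eIF5A-KO 3 library fell among the WT values, and the log2 fold change was 0.27 (95% interval -0.23 to 0.76, edgeR adjusted p = 0.910). Without eIF5A-KO 1 it was 0.11. The kinase gene Ulk1 had the widest interval of the complex, -0.63 to 0.89. It measured 14.9, 45.9 and 33.2 CPM in WT and 31.9, 33.7 and 37.3 CPM in eIF5A-KO, so the WT libraries enclosed every eIF5A-KO value. Its kinase paralogue Ulk2, and Atg13 and Rb1cc1 (FIP200), the adaptor and the scaffold, had log2 fold changes of -0.10, 0.03 and -0.04.

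In the class III PI3-kinase complex, 4 of 6 members had estimates above 0, with a median of 0.04. Uvrag (chr7:98885021-99141141), the subunit that marks the complex acting on late endosomes and autophagosome maturation, came closest of all members to the threshold. It was at 56.2, 54.6 and 49.1 CPM in WT and at 74.7, 60.9 and 67.6 CPM in eIF5A-KO. All 3 eIF5A-KO libraries were above the WT libraries, by a log2 fold change of 0.35 with a standard error of 0.16 (95% interval -0.03 to 0.72). Uvrag transcripts share stretches of at least 200 bases at 90% identity or more with those of 72 other genes, and reads from such stretches could be placed on any of them. Becn1 (Beclin 1, chr11:101285952-101302286), the platform of the complex, was its highest member at 8.55 FPKM. It read 70.8, 59.3 and 62.2 CPM in WT and 55.2, 55.8 and 62.4 CPM in eIF5A-KO, with overlap at the upper end of eIF5A-KO and a log2 fold change of -0.15 (95% interval -0.52 to 0.22, edgeR adjusted p = 0.936). Atg14, which directs the complex to the site of autophagosome formation and is exclusive with UVRAG, had -0.11. The lipid kinase itself, Pik3c3, had a log2 fold change of 0.04, its regulatory subunit Pik3r4 had 0.21 and the activator Ambra1 had 0.03.

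Among the genes for membrane supply, the WT libraries spread more than the groups differed. Of Atg2a, Atg2b, Atg9a, Wipi1 and Wipi2, 4 had estimates above 0, the median was 0.15 and in no member were the groups apart. Atg9a (chr1:75180860-75192196) encodes the membrane protein of the seed vesicles and measured 9.63, 24.9 and 17.5 CPM in WT and 16.9, 22.6 and 21.7 CPM in eIF5A-KO. WT held both the lowest and the highest value, and the log2 fold change was 0.23 (95% interval -0.47 to 0.93, edgeR adjusted p = 0.948). Atg2a, for a lipid transfer protein, behaved alike, with 14.4, 41.4 and 34.3 CPM in WT and 33.1 to 35.4 CPM in eIF5A-KO. The phosphoinositide reader Wipi1 (chr11:109573331-109611967) was the highest of the group at 14.7 FPKM. It stood at 71.8, 75.9 and 58.5 CPM in WT and at 61.6, 70.0 and 55.2 CPM in eIF5A-KO, largely overlapping, with a log2 fold change of -0.14 (95% interval -0.55 to 0.26, edgeR adjusted p = 0.946). Exons of Ankzf1 on the opposite strand overlap those of Atg9a, and Ankzf1 as a whole gene carries 72.3% as many counts. Gskip overlaps Atg2b in the same way, with 44.8% as many counts over the whole gene. Whether reads were counted by strand is not given in the sources used here, so reads in the overlaps cannot be assigned with certainty.

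The conjugation enzymes and proteases were spread evenly around 0. Of 10 members, 6 had estimates above 0 and the median log2 fold change was 0.03. Atg7 (chr6:114643097-114860614) encodes the E1-like enzyme at the head of both conjugation reactions and had the largest estimate of the group. It was at 46.0, 49.4 and 48.7 CPM in WT, the closest agreement between WT libraries of the members shown here, and at 65.6, 59.0 and 51.9 CPM in eIF5A-KO. The groups did not overlap, although eIF5A-KO 3 exceeded the nearest WT library by little, and the log2 fold change was 0.29 with a standard error of 0.17 (95% interval -0.08 to 0.66, edgeR adjusted p = 0.823). Its E2-like partner for ATG8 proteins, Atg3 (chr16:45158785-45188538), was the highest of the group at 21.2 FPKM. Its libraries read 77.0, 52.6 and 66.2 CPM in WT and 68.9, 63.8 and 75.7 CPM in eIF5A-KO, with every eIF5A-KO value between the WT extremes, and the log2 fold change was 0.09 (95% interval -0.33 to 0.51, edgeR adjusted p = 0.972). The E2-like enzyme for the other reaction, Atg10, had the lowest estimate of all members and the lowest CPM. It was at 7.04, 4.35 and 4.67 CPM in WT and at 3.73, 4.03 and 5.44 CPM in eIF5A-KO, and WT 1 was the highest of the 6 libraries. Without WT 1 its log2 fold change of -0.28 became -0.03.

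Atg12 and Atg5, whose proteins that second reaction joins, and Atg16l1, whose protein binds the conjugate and directs where ATG8 proteins are attached, had log2 fold changes of -0.05, -0.08 and -0.01. The 4 ATG4 proteases, which trim ATG8 proteins and release them from membrane, lay between 0.00 for Atg4d and 0.13 for Atg4c. For Atg4d, the 2 group means were equal at 20.6 CPM. Exons of Kri1 on the opposite strand overlap those of Atg4d, and Kri1 as a whole gene carries 79.7% as many counts.

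The ATG8 family had the highest median of the 8 role groups, 0.33, with 4 of 5 members above 0 and none with separated groups. Gabarap (chr11:69991143-69994951) was its most abundant member at 209 FPKM and made up 47.9% to 57.4% of the family's FPKM in each library. It stood at 398, 246 and 360 CPM in WT and at 547, 444 and 343 CPM in eIF5A-KO. Here eIF5A-KO 3 lay below 2 of the WT libraries, and the log2 fold change of 0.41 had an interval from -0.14 to 0.96 (edgeR adjusted p = 0.847). Without WT 2 it was 0.23. Gabarapl1 (chr6:129533160-129542346) came nearest to separated groups, with 142, 113 and 115 CPM in WT and 166, 163 and 136 CPM in eIF5A-KO. Only the eIF5A-KO 3 and WT 1 values crossed, and the log2 fold change was 0.33 (95% interval -0.06 to 0.72, edgeR adjusted p = 0.811).

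In the LC3 genes the eIF5A-KO libraries stood in the same order. Map1lc3b (chr8:121590361-121598760), the LC3 whose lipidated form is the usual marker of autophagosomes, was at 239, 182 and 209 CPM in WT and at 315, 271 and 215 CPM in eIF5A-KO. Again eIF5A-KO 3 fell among the WT values, with a log2 fold change of 0.35 (95% interval -0.10 to 0.80, edgeR adjusted p = 0.827) that was 0.22 without eIF5A-KO 1. Map1lc3a (chr2:155276297-155278073) was at 77.9, 52.1 and 48.7 CPM in WT and at 84.9, 80.6 and 44.0 CPM in eIF5A-KO, which placed eIF5A-KO 3 below all of WT. Its log2 fold change was 0.23 (95% interval -0.40 to 0.86, edgeR adjusted p = 0.945), and it was 0.08 without eIF5A-KO 1 and 0.48 without WT 1. Gabarapl2 (chr8:111940703-111953612) was the exception in sign, with 66.5, 47.0 and 50.8 CPM in WT, 55.6, 50.3 and 47.4 CPM in eIF5A-KO and a log2 fold change of -0.10 (95% interval -0.52 to 0.32, edgeR adjusted p = 0.966). WT 1 was its highest library and the other 5 lay close together. Summed over the family, the level was 407, 275 and 340 FPKM in WT and 512, 445 and 338 FPKM in eIF5A-KO, which overlap.

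Copies and overlapping genes could take or give reads of some members. Map1lc3b has 5 processed pseudogenes, of which Gm6055 matches it at 99.7% over 378 bases and holds 2522 counts of its own in the 6 libraries. Exons of Zcchc14 on the opposite strand overlap those of Map1lc3b, and Zcchc14 as a whole gene holds 42.3% as many counts. The log2 fold change of Gm6055 was -0.10. Another 5 genes share a stretch of at least 200 bases with Map1lc3b at 90% identity or more, and its 10 matching genes together held 138% as many counts as Map1lc3b. For Atg2b, 13 such genes held 492% as many, and for Uvrag 72 such genes held 124653 counts against its own 6173. Reads from the shared stretches are an unknown part of these counts. For Rab7 the counts on its pseudogene Rab7-ps1 were 1.38% of those of the gene, and for Gabarapl2 those on all its copies were 0.484%.

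**Figure D3:**
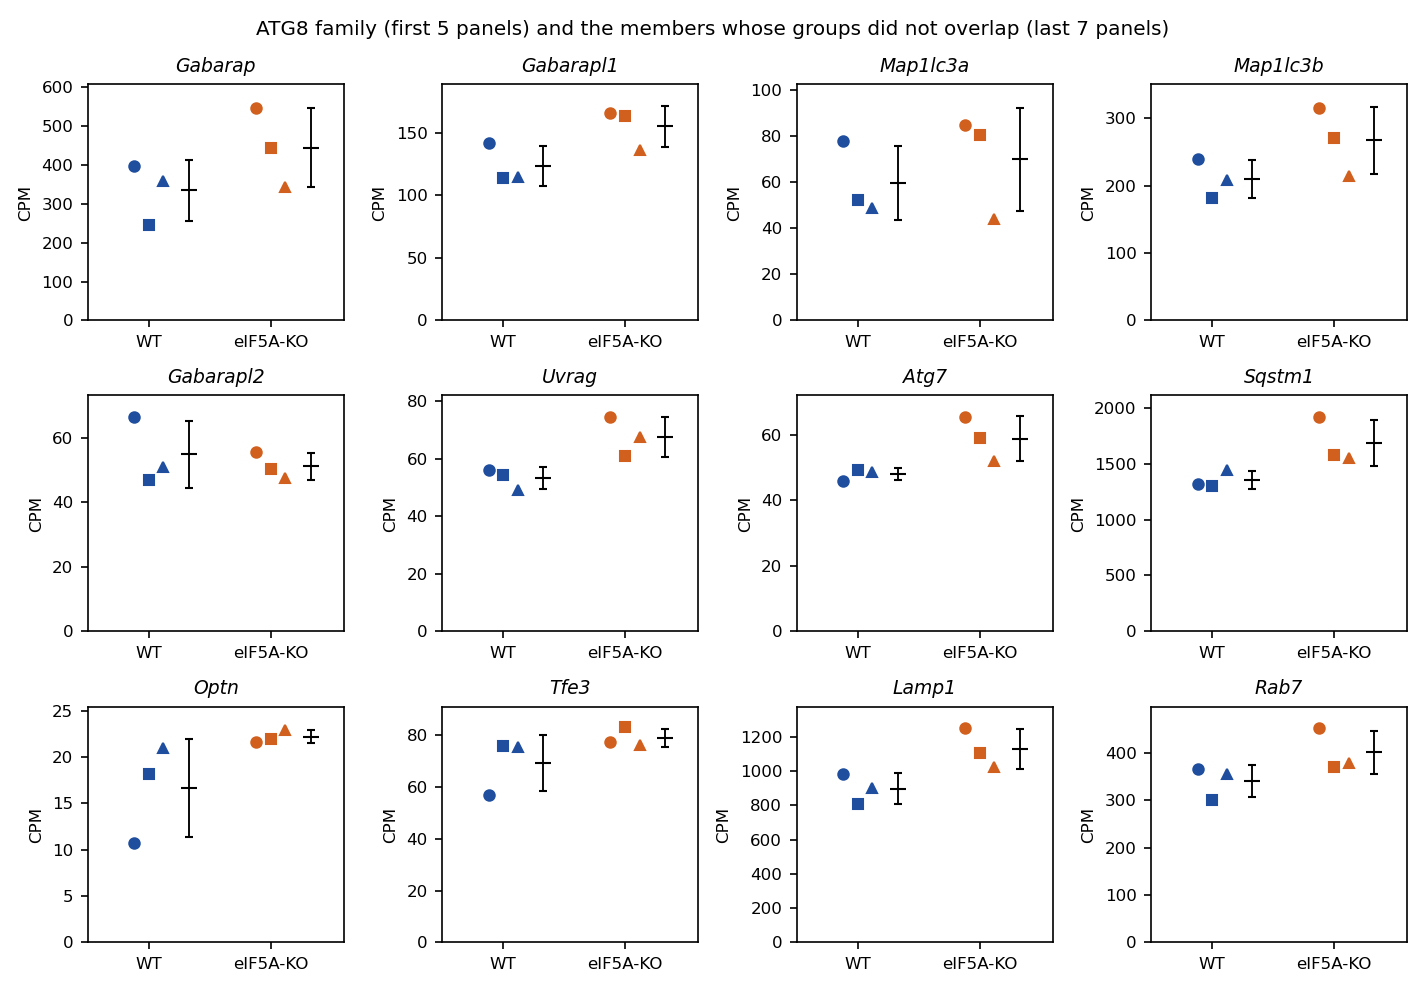
CPM of the 5 ATG8 family members and of the 7 members whose groups did not overlap, with a circle, square and triangle for replicates 1, 2 and 3 and the mean ± SD (n = 3) in black; each axis starts at 0. In the ATG8 panels the eIF5A-KO 3 triangle sits among or below the WT values, and in the other panels every orange mark is above every blue mark.

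All 5 receptor genes had estimates above 0, with a median log2 fold change of 0.28. Sqstm1 (p62, chr11:50199366-50210827), the receptor for ubiquitin-tagged cargo and itself degraded by autophagy, was the most abundant member and took 26.6% of all member counts. It was at 1314, 1296 and 1445 CPM in WT and at 1920.5, 1580 and 1549 CPM in eIF5A-KO. Each eIF5A-KO library was above each WT library, and the log2 fold change was 0.32 with a standard error of 0.19 (95% interval -0.10 to 0.74, edgeR adjusted p = 0.847). Optn (optineurin, chr2:5020642-5064051), a receptor for damaged mitochondria and bacteria, had the largest estimate of all members at 0.42. Its 3 eIF5A-KO libraries lay close together at 21.7, 22.0 and 23.0 CPM, while WT ran from 10.7 CPM in WT 1 over 18.1 to 21.0 CPM. The groups did not overlap, but the gap between them was small and WT 1 set much of the difference: the interval was -0.13 to 0.97 (edgeR adjusted p = 0.847), and without WT 1 the log2 fold change was 0.19. The ubiquitin receptors Nbr1 and Tax1bp1 had log2 fold changes of 0.07 and 0.13, and Calcoco1, a receptor for endoplasmic reticulum, had 0.28 with overlapping groups.

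Both transcription factor genes had estimates above 0. Tfe3 (chrX:7762560-7775202), at 7.95 FPKM the higher of the pair, was at 57.0, 75.8 and 75.6 CPM in WT and at 77.5, 83.1 and 76.2 CPM in eIF5A-KO. The groups were apart by less than 1 CPM between WT 2 and eIF5A-KO 3, and WT 1 was the low value, with a log2 fold change of 0.18 (95% interval -0.21 to 0.58, edgeR adjusted p = 0.917) that was 0.07 without WT 1. Tfeb (chr17:47737030-47792419) was at 11.3, 15.7 and 15.2 CPM in WT and at 19.1, 16.9 and 12.8 CPM in eIF5A-KO. Its groups overlapped through eIF5A-KO 3, and the log2 fold change was 0.21 (95% interval -0.29 to 0.71, edgeR adjusted p = 0.935), or 0.08 without WT 1 and 0.36 without eIF5A-KO 3. Both proteins are controlled chiefly by their move into the nucleus, which mRNA counts do not report.

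The genes of lysosome and fusion divided evenly. Lamp1 (chr8:13159161-13175338), a main glycoprotein of the lysosomal membrane, was at 983, 807 and 904 CPM in WT and at 1253, 1107 and 1025 CPM in eIF5A-KO. The groups did not overlap, and the log2 fold change was 0.33 with a standard error of 0.18 (95% interval -0.09 to 0.74, edgeR adjusted p = 0.820). Rab7, the GTPase of late endosomes that prepares fusion, had 365, 301 and 356 CPM in WT and 453, 370 and 380 CPM in eIF5A-KO, also without overlap, and a log2 fold change of 0.24 (edgeR adjusted p = 0.888), which was 0.15 without eIF5A-KO 1. The sister gene Lamp2 had a log2 fold change of -0.10 and the SNARE gene Stx17, whose protein joins the autophagosome to the lysosome, had -0.14, both with overlapping groups. Lamp1 and Lamp2 thus had estimates of opposite sign, and the difference between them was not tested.

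Libraries WT 1 and WT 2 were often the extremes among the members. WT 1 gave the lowest value of the 6 libraries in 16 members and the highest in 8, and WT 2 gave the lowest in 13 and the highest in 11. The library that was highest most often was eIF5A-KO 1, in 12 members. In 9 members, among them Ulk1, Atg2a, Atg9a and Pik3r4, WT 1 was lowest and WT 2 highest. Gene length went along with this. The 16 members lowest in WT 1 had a median gene length of 6305 bases, and the 13 lowest in WT 2 one of 2661 bases. Across the 42 members, which share these libraries, Spearman's rho between gene length and a library's deviation from the gene's mean was -0.42 in WT 1 and 0.48 in WT 2, and between -0.20 and 0.25 in the other 4 libraries. Over all 14679 tested genes it was -0.32, 0.47 and 0.02 in WT 1 to 3 and -0.25, -0.17 and 0.30 in eIF5A-KO 1 to 3, so both groups held libraries with either sign. WT 1 also had the highest share of mitochondrial transcripts, 5.75% of counts against 2.11% to 3.50% in the other 5 libraries. The part of RNA quality in these values was not tested. Without WT 1, when 711 of 15056 genes were higher at an unadjusted p under 0.05 in place of 402 of 14679, 4 members had an unadjusted p under 0.05, namely Gabarapl1 (0.0202), Gabarap (0.0396), Uvrag (0.0399) and Map1lc3b (0.0399) by edgeR, and 24 instead of 30 members had estimates above 0. None of the 4 passed after adjustment, their lowest adjusted p being 0.386. Without WT 2, WT 3 or eIF5A-KO 3, 1 member each had an unadjusted p under 0.05, namely Pik3r4, Optn and Map1lc3b, against 3.97%, 1.89% and 3.65% of all genes higher in those fits. The number of members with every eIF5A-KO library above WT, 7 with all libraries, became 12 without WT 2 and 15 without eIF5A-KO 3, while that of all tested genes went from 834 to 1857 and 2122.

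**Figure D4:**
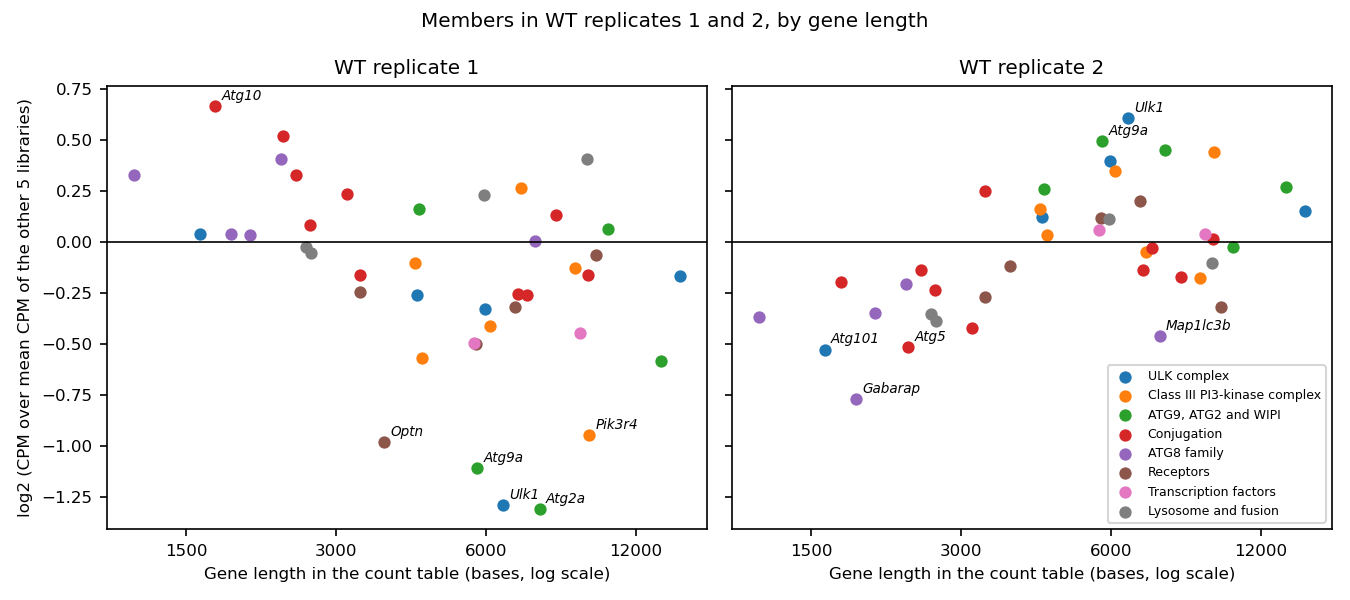
For each member, gene length on a log axis against the log2 of its CPM in WT replicate 1 (left) or WT replicate 2 (right) over its mean CPM in the other 5 libraries, coloured by role. In WT 1 long genes such as Atg2a, Ulk1, Atg9a and Pik3r4 lie lowest, and in WT 2 short genes such as Gabarap, Atg101 and Atg5 lie low; rho of deviation on length was -0.42 and 0.48.

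Further genes of the pathway were taken from 4 lists and described in the same way. The 30 genes for nutrient control through mTORC1 and AMPK, the kinases that inhibit and activate ULK1, were split into 15 above and 15 below 0, with a median log2 fold change of -0.00, and 0 had an unadjusted p under 0.05. Of 15 further selective receptor genes tested, 7 had estimates above 0, 0 had p under 0.05 and the median was again -0.00. Ccpg1, a receptor of the endoplasmic reticulum, was too low to be tested. Of 19 genes for vesicle formation and tethering, 12 had estimates above 0, 0 had p under 0.05 and the median was 0.03. Without WT 1 the medians of the receptor and vesicle lists were 0.18 and 0.17, and 2 of the 30 mTORC1 and AMPK genes were lower at an unadjusted p under 0.05, against 5.44% of all genes then tested. In the receptor list 1 gene was lower at that p without eIF5A-KO 2, against 3.03% of all genes. In the vesicle list 1 gene was higher and 1 lower at that p without WT 1, 2 were higher without WT 2 and 2 without eIF5A-KO 3, when 4.72%, 3.97% and 3.65% of all genes were higher.

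The 27 lysosome genes differed from these in their counts. Of them, 25 had estimates above 0 (48.3% of all tested genes did) and the median log2 fold change was 0.28. In 4 of the 27 (14.8%) every eIF5A-KO library was above WT, against 5.68% of all tested genes, and 5 had an unadjusted p under 0.05, each higher in eIF5A-KO, against 2.74%. The count of separated genes was 8 with library size alone (4.59% of all genes), 14 without WT 1 (12.2%), 8 without WT 2 (12.4%) and 16 without eIF5A-KO 3 (14.1%). None had an adjusted p under 0.05. The lowest p belonged to Gaa, the enzyme that degrades lysosomal glycogen. It was at 93.9, 162 and 146 CPM in WT and at 236, 223 and 171 CPM in eIF5A-KO, with no overlap and a log2 fold change of 0.65 (edgeR adjusted p = 0.602). Atp6v0d1, a subunit of the proton pump, was at 146, 98.8 and 131 CPM in WT and at 223, 199 and 145 CPM in eIF5A-KO, a log2 fold change of 0.59 (edgeR adjusted p = 0.620). Ctsa, protective protein and cathepsin A, was at 241, 211 and 220 CPM in WT and at 480, 343 and 225 CPM in eIF5A-KO, a log2 fold change of 0.64 (edgeR adjusted p = 0.678). In both, eIF5A-KO 3 lay among the WT values. The count of 5 varied with the libraries, as did that of all genes. Without eIF5A-KO 1, which was the highest library for all 3 genes, 0 of the 27 had an edgeR p under 0.05 and the median was 0.18. The count was also 0 without eIF5A-KO 2, 1 without WT 3 and 3 without WT 2, and it was 10 without WT 1 and 10 without eIF5A-KO 3, where the median was 0.43. Among all tested genes, those higher at p under 0.05 numbered 402 with all libraries, 185 without eIF5A-KO 1, 269 without eIF5A-KO 2, 285 without WT 3, 594 without WT 2, 711 without WT 1 and 549 without eIF5A-KO 3. Macrophages are rich in lysosomes. The macrophage marker Cd68, itself a lysosomal protein, was at 18.6, 33.4 and 20.3 CPM in WT and at 60.8, 43.6 and 24.9 CPM in eIF5A-KO. Lyz2, the most abundant of the 7 macrophage markers, was at 28.6, 74.6 and 25.9 CPM in WT and at 75.0, 62.4 and 23.6 CPM in eIF5A-KO. Cd68 and Lyz2 fell from eIF5A-KO 1 to 3 as Ctsa did, and so did the myoblast markers Myod1 and Des. In WT both Cd68 and Lyz2 were highest in WT 2, where Ctsa was lowest. Of the 7 macrophage markers, 5 had estimates above 0 and the median log2 fold change was 0.32. The log2 fold change was 0.35 for Csf1r, 0.51 for Itgam and 0.20 for C1qa, and -0.82 for Ptprc and -0.18 for Adgre1. These last 5 genes were each at 5.32 CPM or less in every library. The median of the 7 was 0.10, 0.92 and 0.19 without WT 1, WT 2 and WT 3, and 0.0078, 0.20 and 0.68 without eIF5A-KO 1, 2 and 3. The part of macrophages in the lysosome values was not tested.

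**Figure D5:**
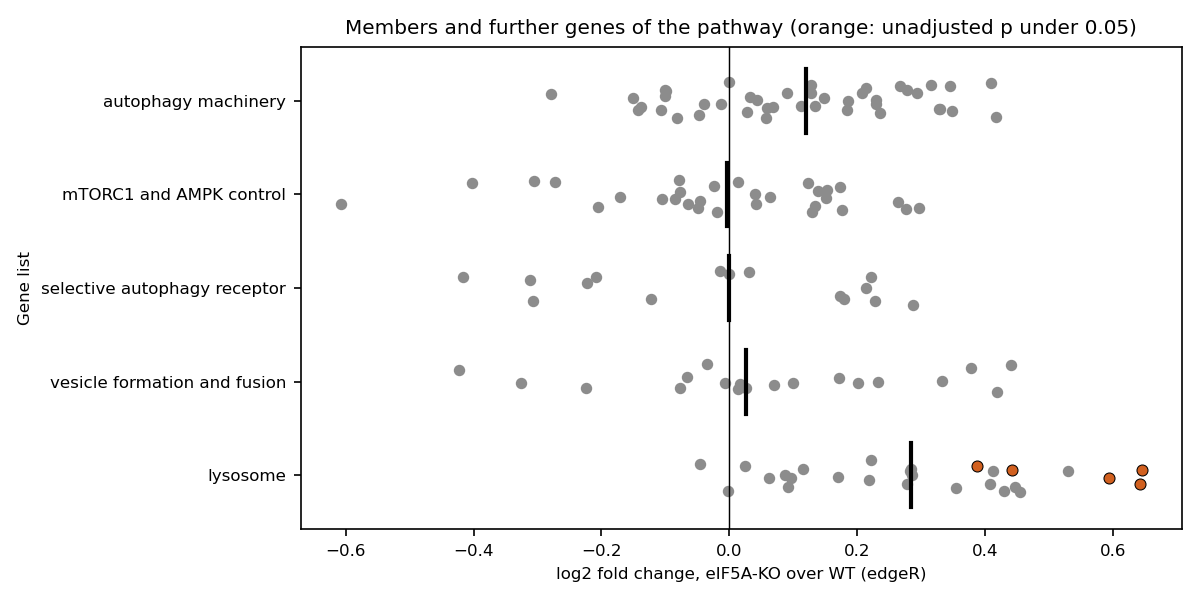
Log2 fold change, eIF5A-KO over WT by edgeR, of each tested gene of the autophagy machinery and of the 4 further lists, with the median of each list as a black bar. Orange dots have an unadjusted p under 0.05, which 5 of the 27 lysosome genes and none of the other genes shown had; the medians were 0.12 for the machinery and 0.28 for the lysosome list.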

How the data were processed

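Libraries were made by the authors from TRIzol-extracted total RNA with an NEBNext Ultra kit, and reads were mapped to mm10 with HISAT at default parameters. The methods name DEGSeq2 for read coverage per gene, and versions are not given in the sources used here. The authors deposited raw counts per gene and, in a second table, FPKM, whose denominators equalled median-of-ratios size factors times the geometric mean of the totals.

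From the counts, edgeR 4.0.16 in R 4.3.3 was run with filterByExpr, TMM factors and the quasi-likelihood test, adjusted by Benjamini-Hochberg over 14679 genes. Standard errors are the log2 fold change divided by the square root of F, and intervals are at 95%. Alternatives were DESeq2 1.42.0 or its size factors, no TMM factors, no filter or a minimum of 10 counts in each library, limma 3.58.1 (voom, or log2 FPKM with a pseudocount of 1 or 0.1), a replicate block, and each library left out. The code was tested on simulated data. The smallest p of an exact permutation test of 3 against 3 libraries is 0.1, so none was used.

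The members and the lists were chosen with earlier results of these data known. Values per library are given for the member with the highest FPKM and that with the largest absolute log2 fold change in each role group, for the ATG8 family, and, outside this rule and chosen after their values were seen, for Ulk1, Atg2a, Atg10, Rab7, Cd68 and Lyz2. In the further lists, the 3 genes with the lowest p are named where more than 3 had p under 0.05. Coordinates are those of the count table (GRCm38), which 41 of the 42 members share with GENCODE M21, and copies were searched with blastn 2.17.0. A listed gene is not reported here.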

Additional observations from a re-analysis of the deposited data

How the results depend on the processing

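No member had an adjusted p under 0.05 in any of the 15 alternatives. Over all genes such calls numbered 3 as reported, 249 without a filter, 88 with DESeq2, 24 with the replicate block, 56 without WT 1 and 0 in the other alternatives; the cause was not tested. The members' median log2 fold change of 0.12 was 0.082 with library size alone, a scaling that moved the median of all genes from -0.01 to -0.04, and 0.074 to 0.14 with a library left out. With a library left out, 0 to 4 members were higher at an unadjusted p under 0.05 and 0 lower, 7 to 15 were separated upward and 0 to 2 downward, 24 to 32 had estimates above 0, and 35 to 40 had their interval inside a 2-fold and 6 to 23 inside a 1.5-fold change. Over all genes these shares moved too: 7.71% to 14.1% were separated upward, 8.82% to 13.6% downward, 47.3% to 50.9% were above 0, and 56.9% to 69.3% lay inside a 2-fold and 7.59% to 31.6% inside a 1.5-fold change. The 2-fold count was 42 as reported, 37 with a pseudocount of 0.1, 38 with voom and 41 with a pseudocount of 1. With a pseudocount of 1, 92.4% of all genes lay inside a 2-fold change. Inside a 1.5-fold change it placed 25 members and 58.4% of all genes.

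Deviations of same-numbered libraries from their group means correlated at 0.094, -0.20 and 0.11 over 14679 genes. Those of differently numbered libraries correlated at -0.29 to 0.31. The replicate numbers of the labels thus gave no sign of pairing, but so few libraries cannot exclude it. With the replicate block, 0 members passed, 41 had their interval inside a 2-fold and 14 inside a 1.5-fold change, and 3 lysosome genes had p under 0.05 in place of 5, while 363 in place of 402 of all genes were higher at that p.

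The sign of 22 members held in all 15 alternatives. Outside the left-out libraries, 3 members changed sign: with library size alone Atg13 to -0.012, Ambra1 to -0.0087 and Atg4d to -0.044, and Atg4d also to -0.000297 with at least 10 counts per library, -0.00626 with voom and -0.0024 with the replicate block. With a library left out 20 members changed sign, 14 of them without WT 1. Their log2 fold changes then ranged, lowest to highest, as follows: Ulk1 -0.20 to 0.51, Ulk2 -0.23 to 0.062, Atg13 -0.055 to 0.091, Rb1cc1 -0.18 to 0.067, Pik3c3 -0.14 to 0.23, Pik3r4 -0.034 to 0.52, Ambra1 -0.10 to 0.21, Atg2a -0.14 to 0.49, Atg2b -0.017 to 0.32, Atg9a -0.049 to 0.585, Atg3 -0.042 to 0.23, Atg4b -0.011 to 0.14, Atg4d -0.090 to 0.14, Atg5 -0.27 to 0.16, Atg12 -0.11 to 0.10, Atg16l1 -0.078 to 0.056, Gabarapl2 -0.20 to 0.071, Nbr1 -0.027 to 0.18, Lamp2 -0.19 to 0.069, and Stx17 -0.25 to 0.0087. Of members that kept their sign, Wipi2 ranged from 0.012 to 0.13, Atg4a from 0.028 to 0.21, Atg4c from 0.020 to 0.29, Tax1bp1 from 0.020 to 0.23, Calcoco1 from 0.16 to 0.42 and Atg10 from -0.46 to -0.026. Becn1 ranged from -0.21 to -0.065, Atg14 from -0.16 to -0.048 and Wipi1 from -0.24 to -0.061. Eif5a ranged from -0.13 to 0.23. The lowest count of a member in any library was 61, and 3 libraries per group limit the precision of every interval.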
